A study of Mus musculus with 4 samples.

Results

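The Rhox genes are a cluster of homeobox genes on the mouse X chromosome, and the genes described here were picked from it by symbol: Rhox1, Rhox5, Rhox6 and Rhox9. Rows were found for 3 of these 4 symbols among the 23235 gene symbols of each library, and no row for Rhox5 was analysed here. The choice was made with the SCNT and IVF values of these genes known, so those values are a description and carry no test. RNA came from early mouse blastocysts, 6 embryos per library, taken 96 hours after activation or fertilization, with 2 SCNT and 2 IVF libraries. In somatic cell nuclear transfer (SCNT) the nucleus of a somatic cell takes the place of the oocyte's own. Here the donors were embryonic fibroblasts, heterozygous for an Xist knockout, from a 129S1/SvImj mother and a CAST/EiJ father, and the recipient oocytes were from B6D2F1/J mice. The embryos made by in vitro fertilization (IVF) had Xist knockout oocytes of 129S1/Svj background and wild-type CAST/EiJ sperm. Both groups thus came from Xist knockout material, but they were not matched for it, the knockout being heterozygous in the donors and carried by the oocytes in IVF. Embryo sex was not part of the comparison, and its part in the values of these X-linked genes was not tested. The headers of the SCNT libraries name Kdm4d, a histone demethylase gene on which the labels are silent; its use in those embryos remains not given in the sources used here.

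Homeobox genes encode transcription factors that bind DNA through a homeodomain. The Rhox genes (reproductive homeobox on the X) are known for expression in testis, ovary, placenta and embryonic stem cells, and the cluster is a classic example of genes kept silent by DNA methylation in somatic lineages. Rhox6 and Rhox9 were first described as the placenta-specific homeobox genes Psx1 and Psx2. Both are also expressed in germ cells.

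Levels are FPKM, fragments scaled by transcript length and by the mapped total, a unit inferred for these files. Being per length, FPKM may be set side by side between genes. FPKM summed to 956773 and 976790 in SCNT libraries 1 and 2 and to 933167 and 985197 in IVF libraries 1 and 2. Symbols at exactly 0 numbered 6505 and 5212 in SCNT libraries 1 and 2 and 6527 and 5716 in IVF libraries 1 and 2, so in both groups the library numbered 2 had fewer. Xist, the knocked-out gene, had 4.13 and 3.33 FPKM in the SCNT libraries and 1.09 and 13.9 FPKM in the IVF libraries. The groups overlapped for Xist. The donors were heterozygous for the knockout and the IVF sperm were wild type, so an intact Xist allele could be present in both groups. The deleted part of Xist remains not given in the sources used here. No label ties a library to its own parents or day, so a p-value here covers the spread among 4 libraries, which may be technical. In pooled embryos, fewer expressing cells and less RNA per cell cannot be told apart.

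Rhox6 and Rhox9 are near copies, which bears on how far their values can be separated. In the GENCODE M21 annotation of the GRCm38 build, Rhox6 lies at chrX:37826910-37829857 on the plus strand and Rhox9 at chrX:37899097-37901770 on the minus strand. Each has 4 exons and 681 coding bases. Their coding sequences aligned without a gap and differed at 64 bases, an identity of 90.6%. The identity of Rhox1 to Rhox6 was 63.9% of aligned bases and to Rhox9 61.9%. The differences were uneven: 34 of the 64 fell within coding bases 421 to 660, the stretch shown here because it covers the homeobox. The stretch lies at chrX:37827704-37829695 in Rhox6 and chrX:37899228-37901073 in Rhox9, spans that include intron sequence. Its 240 coding bases alone are printed 5′ to 3′ on the coding strand, with capitals where the 2 genes differ.
Rhox6: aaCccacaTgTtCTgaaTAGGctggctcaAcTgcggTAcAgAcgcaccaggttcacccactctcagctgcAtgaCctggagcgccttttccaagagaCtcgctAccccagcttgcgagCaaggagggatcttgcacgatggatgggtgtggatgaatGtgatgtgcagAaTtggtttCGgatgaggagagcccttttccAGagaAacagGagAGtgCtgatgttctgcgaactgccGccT
Rhox9: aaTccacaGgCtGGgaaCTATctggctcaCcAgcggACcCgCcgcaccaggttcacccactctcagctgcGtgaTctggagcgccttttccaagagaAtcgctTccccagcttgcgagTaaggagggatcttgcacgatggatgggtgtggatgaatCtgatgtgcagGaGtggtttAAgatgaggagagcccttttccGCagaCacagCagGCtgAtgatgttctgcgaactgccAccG

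In contrast, coding bases 167 to 327 are one run of 161 bases without a difference, in a single exon of each gene (chrX:37827450-37827610 in Rhox6 and chrX:37901167-37901327 in Rhox9). It is shown because a read lying within it cannot be assigned to either gene by its sequence.
Rhox6 and Rhox9: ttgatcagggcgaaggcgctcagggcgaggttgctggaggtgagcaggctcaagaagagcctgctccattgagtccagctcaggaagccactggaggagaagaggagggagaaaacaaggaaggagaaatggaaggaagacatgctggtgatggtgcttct

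Of all 30-base windows, 23.9% of those in the Rhox6 transcript also occurred in that of Rhox9, and 27.4% of those in Rhox9 occurred in Rhox6. With 100-base windows these shares were 6.8% and 7.9%. Neither Rhox1 nor Rhox8, which encodes another homeodomain protein of the cluster, shared a 50-base window with any other Rhox coding transcript of the annotation. The treatment of shared reads remains not given in the sources used here. The split between Rhox6 and Rhox9 is therefore uncertain, and their sum is given beside the single values.

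Rhox6 had the highest mean of the 3 genes over the 4 libraries and in SCNT, while Rhox1 was higher in both IVF libraries. Rhox6 had 4.05 and 6.70 FPKM in SCNT libraries 1 and 2, against 0 and 1.55 FPKM in IVF libraries 1 and 2. Both SCNT libraries lay above both IVF libraries. The SCNT minus IVF difference on the log2(FPKM + 1) scale was 1.96, with a within-group SD of 0.74 (pooled, n = 2 each). Within library numbers the difference was 2.34 for the libraries numbered 1 and 1.59 for those numbered 2. Rhox6 had more FPKM than 65.7% and 71.8% of all symbols in the SCNT libraries, and more than 0% and 56.5% in the IVF libraries. Leaving out IVF library 1, the one listed at 0, reduced the log2 difference to 1.29. Its size also depends on the pseudocount, being 3.71 with 0.1 and 0.85 with 5 in place of 1.

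Rhox9 showed the same order of libraries at lower levels, with 1.12 and 4.10 FPKM in SCNT libraries 1 and 2, against 0 and 0.856 FPKM in IVF libraries 1 and 2. Again no IVF library reached the lower SCNT library, but the gap between 1.12 and 0.856 FPKM is small beside the spread within SCNT. The log2 difference was 1.27, with a within-group SD of 0.78 (pooled, n = 2 each), and was 1.08 in the libraries numbered 1 and 1.46 in those numbered 2. Here SCNT library 2 and IVF library 1 carry much of the difference, which was 0.64 without the first, 0.83 without the second and 1.91 without SCNT library 1. With a pseudocount of 0.1 it was 2.87, and with 5 it was 0.46.

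Rhox1 did not separate the groups. Its values were 0.177 and 3.88 FPKM in SCNT libraries 1 and 2, against 0.827 and 2.06 FPKM in IVF libraries 1 and 2. The SCNT libraries enclosed both IVF libraries and held the lowest and the highest value. The log2 difference of 0.02 was far smaller than the within-group SD of 1.09 (pooled, n = 2 each). It was -0.63 in the libraries numbered 1 and 0.67 in those numbered 2, and it ran from -1.01 without SCNT library 2 to 1.04 without SCNT library 1. Rhox1 also had no fixed place relative to its relatives, standing below Rhox9 in SCNT library 1 and above Rhox6 in IVF library 2.

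**Figure D1:**
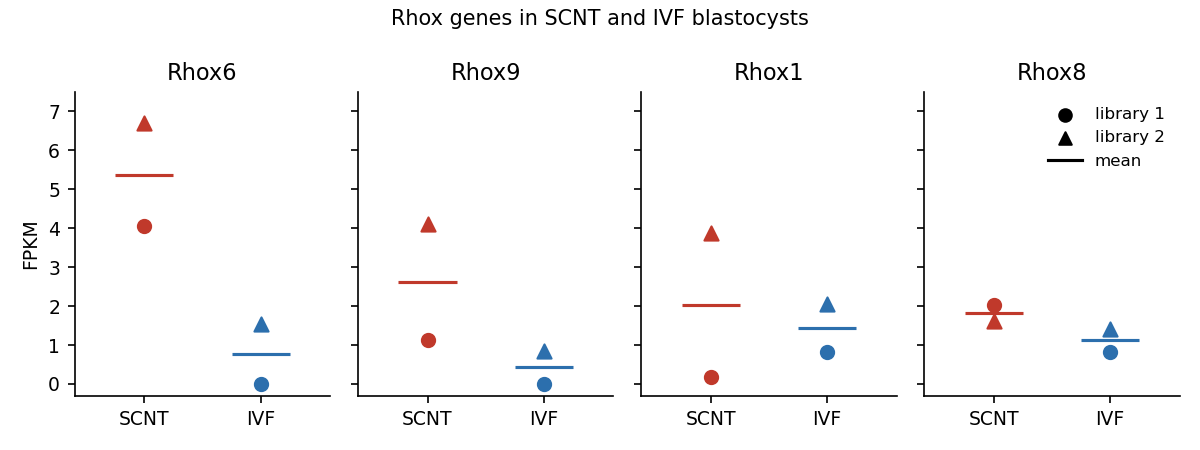
FPKM (y axis) of Rhox6, Rhox9, Rhox1 and Rhox8 in SCNT (red) and IVF (blue) blastocysts, with a circle for library 1, a triangle for library 2 and a bar at the mean of the 2. For Rhox6 and Rhox9 both SCNT points lie above both IVF points, and the IVF circles lie at 0, while the Rhox1 groups overlap.

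The groups thus did not overlap for 2 of the 3 genes, both higher in SCNT. Across all 11039 genes with a mean of at least 1 FPKM, both SCNT libraries exceeded both IVF libraries for 18.3%, and for 22.0% of the 350 X-linked ones. Since the genes were chosen with these values known, nothing is read from that comparison. As a description of size, 64 of the 11039 genes had a larger SCNT minus IVF difference than Rhox6, and 108 had a larger one than Rhox9. No other X-linked gene exceeded Rhox6, and 5 including Rhox6 exceeded Rhox9. Rhox6 and Rhox9 reached the mean of 1 FPKM only through SCNT. Their SCNT means were 5.38 and 2.61 FPKM, against IVF means of 0.777 and 0.428 FPKM. A low gene admitted through a single group differs in that direction, so nothing is read from these ranks. Rhox1 lay near the middle, above 51.0% of genes.

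**Figure D2:**
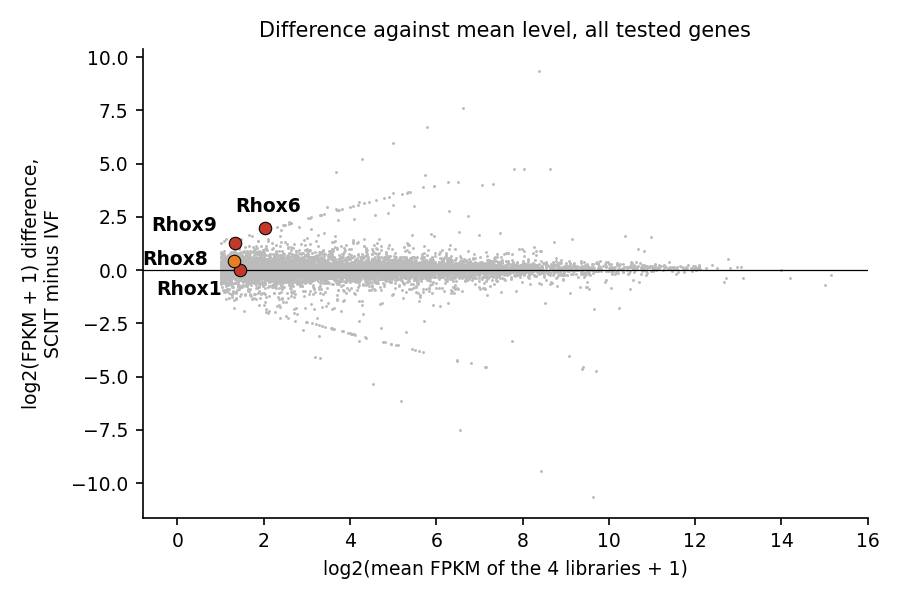
Each point is a gene with a mean of at least 1 FPKM, placed by the log2 of its mean FPKM + 1 over the 4 libraries (x axis) and its SCNT minus IVF difference on the log2(FPKM + 1) scale (y axis). Rhox6 at 1.96 and Rhox9 at 1.27 lie above the bulk of genes of like level, Rhox1 at 0.02 lies within it, and Rhox8 (orange) at 0.42 lies at its upper side.

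Summed over the pair, Rhox6 and Rhox9 had 5.17 and 10.8 FPKM in SCNT libraries 1 and 2, against 0 and 2.41 FPKM in IVF libraries 1 and 2. The sum does not depend on how shared reads were divided between these genes, other than through their lengths, and it kept the groups apart. Summed over all 3 genes, the values were 5.34 and 14.7 FPKM in SCNT and 0.827 and 4.47 FPKM in IVF, a ratio of group means of 3.78. That ratio was 2.24 without IVF library 1, 12.1 without IVF library 2 and 2.02 without SCNT library 2. The makeup of the sum differed between libraries. Rhox6 gave 75.8% and 45.7% of it in SCNT libraries 1 and 2, and 0% and 34.8% in IVF libraries 1 and 2. The level of Rhox9 relative to Rhox6 was 0.276 and 0.612 in SCNT libraries 1 and 2 and 0.551 in IVF library 2.

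The 0 of both genes in IVF library 1 was set beside the zeros of other genes, in a count made after the values were seen. Only 13 symbols were listed at 0 in that library and at 0.856 FPKM or more, the lower of the Rhox6 and Rhox9 values outside it, in each of the other 3. Of these, 10 were microRNA, small nucleolar or similar short RNA genes, and the others were Rhox6, Rhox9 and LOC100302567. Rhox6 and Rhox9 are in this count by construction, since its threshold came from their own values. The like counts for the other libraries were 5 for SCNT library 1, 4 for SCNT library 2 and 6 for IVF library 2. An exact 0 can also be a failed estimate, so these values are given only as listed at 0. The lowest nonzero values show how fine the scale is. Among 763 genes with a single annotated transcript within 20% of the length of that of Rhox6, the 5th percentile of values above 0.001 FPKM lay between 0.0465 and 0.0487 FPKM in the SCNT libraries and between 0.0450 and 0.0535 FPKM in the IVF libraries. The 1.55 FPKM of Rhox6 in IVF library 2 is well above that level.

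All 3 genes were higher in the library numbered 2 than in that numbered 1 of both groups. The same held for 33.3% of the 11039 genes, while 39.6% were lower in the libraries numbered 2 of both groups. The step between the libraries of a group, on the log2(FPKM + 1) scale, was 0.61 in SCNT and 1.35 in IVF for Rhox6, 1.27 and 0.89 for Rhox9, and 2.05 and 0.74 for Rhox1. For Rhox1 this step within SCNT exceeded any difference between the groups.

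Apart from Rhox8, with a mean of 1.47 FPKM beside 1.52 FPKM for Rhox9, the other Rhox genes with a row were close to silent. Of 28 other Rhox symbols, 2 of them pseudogenes, 20 were at exactly 0 in every library and 7 reached 0.001 FPKM in any. The copies of Rhox2, Rhox3 and Rhox4, which repeat in tandem, made up 22 of the 28, and 18 of these 22 were at 0 throughout. Their highest value was 0.266 FPKM, for Rhox2a in SCNT library 2. Values of such near-identical copies are uncertain, since reads that fit several of them may have been divided or dropped. Rhox10, a gene of male germ cells, was at 0.0790 FPKM in SCNT library 2 and at 0 elsewhere.

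Rhox8, a homeobox gene expressed in supporting cells of the gonads, was the only other Rhox gene with a mean of at least 1 FPKM. It had 2.02 and 1.61 FPKM in SCNT libraries 1 and 2, against 0.820 and 1.42 FPKM in IVF libraries 1 and 2. The SCNT libraries lay above the IVF libraries by a narrow margin. The log2 difference was 0.42 ± 0.23 (SE) and did not pass (limma adjusted p = 0.877, over all genes). In limma, 0.127% of all genes passed at an adjusted p under 0.05, with 0.0725% higher and 0.0544% lower in SCNT. Rhox8 lies between Rhox6 and Rhox9 in gene order.

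Rhox13, a gene of testicular germ cells, was detected only in IVF. It was at 0 in both SCNT libraries, against 0.150 and 0.679 FPKM in IVF libraries 1 and 2, too low to be tested. Its groups did not overlap, as was the case with lower values in SCNT for 15.1% of the tested genes. Rhox7 was at 0.0856 and 0.0757 FPKM in SCNT, against 0 and 0.145 FPKM in IVF.

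**Figure D3:**
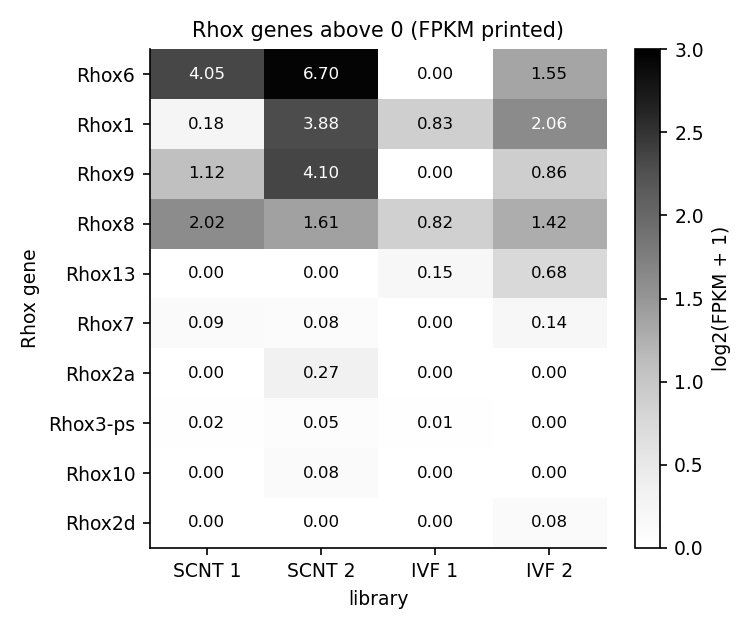
FPKM of the 10 Rhox genes above 0.001 FPKM in at least 1 library (rows, by mean level), in the SCNT and IVF libraries (columns). Shading gives log2(FPKM + 1) from 0 (white) to 3 (black) and the printed numbers are FPKM. The upper 4 rows hold nearly all of the signal, and Rhox13 alone among the lower rows is above 0 in both IVF libraries.

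Tested genes beside the cluster had log2 differences between -0.75 and 0.46. Rhox1 at 0.02 and Rhox8 at 0.42 fell within that range, and Rhox6 and Rhox9 above it. Since Rhox6 and Rhox9 were chosen with their values known, nothing is read from their contrast with the genes beside the cluster. Of the 10 protein-coding genes on either side of it, 12 of 20 reached a mean of 1 FPKM, and with limma 0 of the 12 passed (0 also at an unadjusted p under 0.05, where 7.09% of all genes lay). Their median log2 difference was 0.05, against 0.01 for all genes tested, with 7 higher and 5 lower estimates. C1galt1c1, which encodes a chaperone of an O-glycosylation enzyme, differed by 0.46 ± 0.19 (SE, limma adjusted p = 0.757). Lamp2, a lysosomal membrane protein gene, differed by -0.56 ± 0.24 (adjusted p = 0.758), Gm9 by -0.75 ± 0.40 (adjusted p = 0.861) and Sept6, a septin gene, by -0.24 ± 0.23. Of the 12, both SCNT libraries lay above both IVF libraries for 1, C1galt1c1, and below for 2, Lamp2 and Sept6. The shares of all genes were 18.3% and 15.1%. For Sept6 the higher SCNT library had 1.3 FPKM and the lower IVF library 1.32 FPKM.

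**Figure D4:**
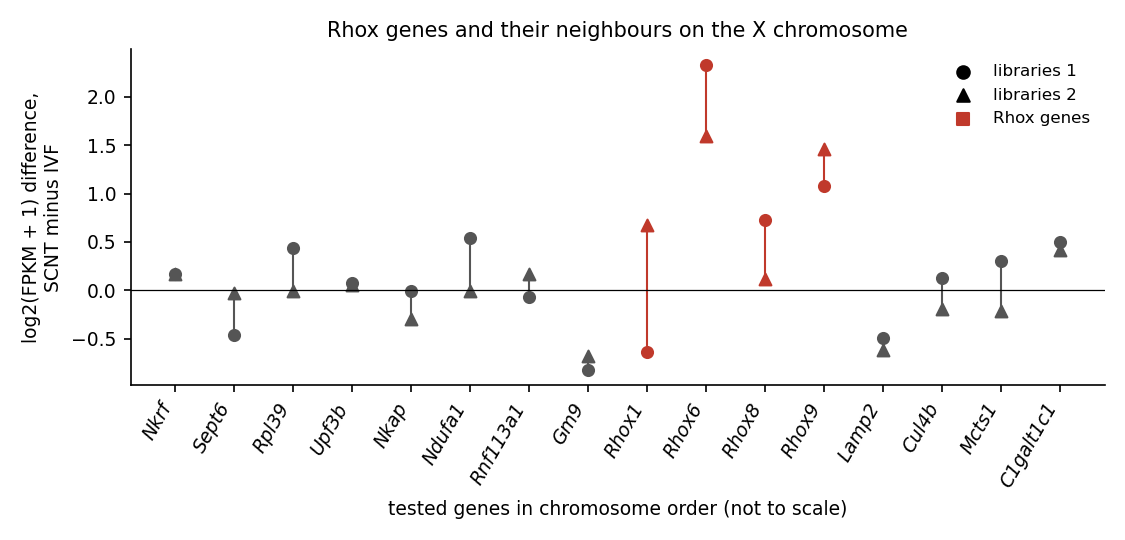
SCNT minus IVF difference on the log2(FPKM + 1) scale (y axis), taken within the libraries numbered 1 (circles) and those numbered 2 (triangles), for the tested genes beside the Rhox cluster (grey) and 4 Rhox genes (red), in chromosome order and not to scale. Rhox6 lies at 2.34 and 1.59 and Rhox9 at 1.08 and 1.46, while the grey neighbours lie between -0.82 and 0.54 and Rhox1 crosses 0.

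Chromatin genes that act on germline genes were taken as the upstream side of the pathway. The list held DNA methyltransferases and their partners, H3K9 methylation enzymes and members of a Polycomb complex that binds germline promoters. It also held Tet1 and Tet2, which act the other way by oxidizing methylcytosine and so promoting loss of DNA methylation. All 17 were tested. With limma 0 passed (0 at an unadjusted p under 0.05, where 7.09% of all genes lay). The median log2 difference was 0.06. Dnmt1, the maintenance methyltransferase, had 16.4 and 15.7 FPKM in SCNT and 14.2 and 13.5 FPKM in IVF, a difference of 0.20 ± 0.16 (SE, limma adjusted p = 0.981). Tet2 differed by -0.33 ± 0.19, Max, a partner of the Mga subunit, by 0.37 ± 0.21 and the complex subunit gene L3mbtl2 by -0.32 ± 0.20 (adjusted p = 0.891, 0.894 and 0.898). The de novo methyltransferase Dnmt3b had 71.1 and 54.5 FPKM in SCNT and 75.9 and 52.7 FPKM in IVF, so it differed more between library numbers than between groups. It falls outside the rule for named genes and was chosen after its values were seen.

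Other homeobox genes of the embryo included 22 tested of 45 listed. With limma 0 passed (1 at an unadjusted p under 0.05, where 7.09% of all genes lay). The median log2 difference was 0.13. Of the 22, 7 had both SCNT libraries above both IVF libraries and 1 had them below, against 18.3% and 15.1% of all genes. Cdx2, the trophectoderm regulator, had 36.6 and 29.5 FPKM in SCNT and 20.0 and 21.7 FPKM in IVF (difference 0.63 ± 0.19 SE, limma adjusted p = 0.538). Pknox1 differed by 0.40, Hesx1 by 0.36 and Obox6, an oocyte and early-embryo homeobox gene, by -1.06, none past the threshold.

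Rhox6 and Rhox9 are genes of placental trophoblast, and markers of trophectoderm, its precursor, gave mostly higher estimates in SCNT, 16 of 20. Of these 20 tested markers, from 22 listed, 10 had both SCNT libraries above both IVF libraries and 1 had them below, against 18.3% and 15.1% of all genes. With limma 0 passed and 8 had an unadjusted p under 0.05, where 7.09% of all genes lay, with a median log2 difference of 0.40 against 0.01 for all genes. The summed FPKM of all 22 listed was 8291 and 6027 in SCNT and 5971 and 5323 in IVF, and none of them was at 0 in every library. Most of this sum came from the pair of genes with the highest FPKM, for each of which the groups overlapped. Plac1, an X-linked placental gene, had 90.1 and 86.9 FPKM in SCNT and 21.8 and 33.3 FPKM in IVF, a log2 difference of 1.68 ± 0.25 (SE, limma adjusted p = 0.224). Elf5, a transcription factor gene of trophoblast, differed by 1.63 ± 0.32, the keratin gene Krt19 by 2.04 ± 0.40 and the tetraspanin gene Tspan8 by 1.07 ± 0.21 (adjusted p = 0.320 for each). Lrp2, an endocytic receptor gene and also among the 8, was lower, with 39.2 and 35.0 FPKM in SCNT and 75.4 and 61.9 FPKM in IVF (difference -0.87 ± 0.19 SE, limma adjusted p = 0.384); it lies outside the rule for named genes and was chosen after its values were seen. The part of the trophectoderm markers in the Rhox6 and Rhox9 values was not tested.

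Of 16 primitive endoderm markers 13 were tested, and 7 of the 13 had both SCNT libraries above both IVF libraries and 0 had them below, against 18.3% and 15.1% of all genes. Their median was 0.30, and with limma 0 passed and 5 had an unadjusted p under 0.05, against 7.09% of all genes. Sparc, a matrix glycoprotein gene, had 63.1 and 80.1 FPKM in SCNT and 35.2 and 27.9 FPKM in IVF (difference 1.16 ± 0.22 SE, limma adjusted p = 0.320). Lama1 and Lamc1, which encode laminin chains, differed by 0.69 and 0.73, and Serpinh1, a chaperone gene for collagen, by 0.75. Inner cell mass and epiblast markers had a median of 0.18 over 15 tested genes. Of these, 5 had both SCNT libraries above both IVF libraries and 0 had them below, against 18.3% and 15.1% of all genes. With limma 0 passed and 2 had an unadjusted p under 0.05, where 7.09% of all genes lay. These were Spp1 at 0.96 and Tdh at 0.76, while Tdgf1 and Gdf3 differed by 0.67 and 0.34. The parts of these lists were not tested either.

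Germ cell markers gave mostly lower estimates in SCNT, 8 of 9. Of these 9 tested genes, from 14 listed, 5 had both SCNT libraries below both IVF libraries and 0 had them above, against 15.1% and 18.3% of all genes. The median was -0.88, and with limma 0 passed and 5 had an unadjusted p under 0.05, against 7.09% of all genes. Mael, a piRNA pathway gene, had 2.22 and 1.81 FPKM in SCNT and 6.34 and 7.18 FPKM in IVF (difference -1.37 ± 0.19 SE, adjusted p = 0.203). Dazl, which encodes a germ cell RNA-binding protein, differed by -1.26, the meiotic gene Hormad1 by -1.25 and Tex19.1 by -0.88.

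Markers of cells that could be carried over mostly had a mean under 1 FPKM. Fibroblast markers summed to 14.6 and 6.33 FPKM in SCNT and 9.19 and 6.17 FPKM in IVF over 14 genes. Of these 2 were tested, Vim at a difference of 0.21 and Col1a1 at 0.74, and Twist2 was at 0 throughout. Col1a1 had 3.38 and 0.193 FPKM in SCNT libraries 1 and 2, against 0.73 and 0.0846 FPKM in IVF libraries 1 and 2. Cumulus and granulosa markers summed to 16.2 and 24.5 FPKM in SCNT and 16.5 and 19.8 FPKM in IVF over 12 genes, and Amh, Cyp19a1 and Ptx3 were at 0 in every library. Of that list Amhr2 (difference 0.64) and Nr5a2 (-0.20) were tested, and they made up most of the sum in each library. Oocyte markers summed to 4.08 and 3.04 FPKM in SCNT and 5.37 and 3.24 FPKM in IVF, with Figla (-0.11) as the tested one. None of these tested genes passed in limma, nor did any have an unadjusted p under 0.05.

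The genes with profiles most like those of the Rhox genes were found by the distance between log2(FPKM + 1) profiles over the 4 libraries, each centred on its own mean. Closest to Rhox6 were 4930591A17Rik (distance 0.42), Gm5480 (0.44) and Plac8 (0.51). Plac8, first found as a placental transcript, had 12.9 and 17.2 FPKM in SCNT and 2.70 and 5.21 FPKM in IVF. Rhox9 was the 11th nearest gene to Rhox6 at 0.90, and Rhox6 the 96th nearest to Rhox9. Closest to Rhox9 were 0610040B10Rik (0.31), Cyct, the testis form of cytochrome c (0.44), and 9230102O04Rik (0.44). Rhox1 was most like 1700080O16Rik, also X-linked (0.27), Ppp2r2b (0.29) and Atp6v0c-ps2 (0.38), which were all higher in the libraries numbered 2. With so few libraries, near neighbours among 11039 genes are a description only.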

How the data were processed

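Each library was made from 6 pooled embryos, whose cDNA was amplified before sequencing, per the labels' protocols. Such amplification adds noise to low genes. The submitters' processing notes name Cufflinks 2.2.1, TopHat2 2.0.14, Bowtie2 2.1.0 and the mm9 build. The annotation, use of strand, handling of shared reads and any scaling remain not given in the sources used here. The deposited values are treated as FPKM, inferred from Cufflinks and from the values. Read counts are not in these values, so depth is unknown and no counting error is given. Libraries were grouped by their titles. Members, lists and tests were chosen with earlier results of these data known. Genes with a mean of at least 1 FPKM were tested on log2(FPKM + 1) with limma 3.58.1 (R 4.3.3), using a mean-variance trend and Benjamini-Hochberg adjustment over all 11039 genes. This scale understates changes of low genes. The fit was run on simulated data with large changes and less noise than these libraries have. That run therefore does not show how well the fit finds changes here. Named genes were the Rhox genes with a mean of at least 1 FPKM, Xist, Kdm4d, the 3 nearest profiles per gene and up to 4 members of each list with the smallest unadjusted p. Rhox2a, Rhox7, Rhox10, Rhox13, Dnmt3b and Lrp2 fall outside this rule and were chosen after their values were seen. Alternatives covered pseudocounts, filters, scalings, a robust prior, the replicate number as a block and leaving out each library. Coding sequences are from GENCODE M21 (GRCm38) transcripts and gene order from RefSeq (GRCm38.p6), not the authors' build. Kdm4d was at 0.0649 and 0.117 FPKM in SCNT and at 0 and 0.0382 FPKM in IVF.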

Additional observations from a re-analysis of the deposited data

How the results depend on the processing

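The log2 differences of Rhox6 and Rhox9 were positive under all 10 alternatives that gave a value. Since both SCNT libraries lay above both IVF libraries, this sign was fixed in advance for the pseudocounts and for leaving out a library. Dropping the filter leaves the differences unchanged by construction. With a pseudocount of 0.1 they were 3.71 and 2.87, and with 5 they were 0.85 and 0.46; a gene listed at 0 in a library makes the difference depend on that constant. Leaving out a library gave 1.29 to 2.64 for Rhox6, 0.64 to 1.91 for Rhox9 and -1.01 to 1.04 for Rhox1. The summed ratio ranged from 2.02 to 12.1 when a library was left out. With a minimum mean of 5 FPKM none of these 3 genes was tested. The number of genes passing over all genes was 14, and 36 to 43 when a library was left out, the lone library of a group being assumed to vary like the others. The other 8 alternatives gave 10 to 21. For each of the 12 lists, 0 members passed in limma under every one of the 12 alternatives. With so few genes passing at all, that count says little about the lists. In the main fit, 0 genes reported to respond to Rhox5 were tested, and 1 each of the other Rhox and oocyte lists. With the replicate number as a block 20 genes passed, and the differences of the Rhox genes were the same by construction; deviations of same-numbered libraries correlated at 0.309 across genes, and too few pairs exist to say that the numbers pair the libraries. Depth is unknown, which limits what the values listed at 0 can show.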

Other observations

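Genes reported to respond to Rhox5 in Sertoli cells, the netrin receptor gene Unc5c and the metabolic genes Ins2, Adipoq, Retn, Pparg and Ppargc1a, were nearly silent in these blastocysts. All 6 together summed to 0.176 and 0.370 FPKM in SCNT and to 0.0512 and 0.0460 FPKM in IVF, and 0 of the 6 reached a mean of 1 FPKM. Retn was at 0 in every library.

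Promoters in the RefSeq table (GRCm38.p6, 300 bases each) were matched for Rhox1 among the 3 genes described. The Rhox1 promoter held 0 CpG dinucleotides, against a median of 7.0 over all 32851 promoters. Over 28 Rhox promoters the median was also 7.0, with a range of 0 to 12. The Rhox1 promoter held no E-box CACGTG, no TATA motif TATAAA and no CCAAT box, searched on both strands. Those motifs occurred in 7.2%, 13.6% and 37.4% of all promoters. Among the 28 Rhox promoters, CACGTG was found in 5, TATAAA in 1 and CCAAT in 16. Many of these 28 belong to tandem copies with near-identical sequence and are not independent.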
